A study of Mus musculus with 18 samples.

Results

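The 8 genes described here hold transposons in check in mouse germ cells, and were followed across 6 groups of stem cell cultures: Mael, Tex19.1, Piwil2, Tdrd1, Tdrd9, Mov10l1, Asz1 and Tdrd12. They were taken by symbol from the platform annotation of Affymetrix Mouse Gene 1.0 ST arrays, and each of the 8 has 1 probe set that carries its symbol alone, among 19938 genes measured in that way. Total RNA, 300 ng per array, was hybridised from 3 biological replicates of each group. The differentiated cells were adult stem cells of the 129SV background and embryonic stem (ES) cells of the 129SV background. The undifferentiated cells were adult and ES cells with the genetic background Stra8-EGFP/Rosa26 (Stra8 for short), and adult and ES cells of 129SV. The series title calls the adult cells multipotent adult germline stem cells. The sample descriptions of a group differ in the replicate number alone, so the replicates of a group may be cultures of 1 line, and p-values then measure the spread between such cultures. In that case background and origin, as compared below, cannot be told apart from differences between single lines. How the cells were differentiated, whether feeder cells were used, and the age of the donors are not stated in the labels.

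Transposons are mobile DNA elements that can copy or move themselves within the genome. In male germ cells their RNAs are cut by PIWI proteins, which are guided by short PIWI-interacting RNAs (piRNAs), and the same pathway directs DNA methylation to transposon copies. Proteins with Tudor domains gather the PIWI proteins and their partners in granules near mitochondria. Many genes of this pathway have promoters that are methylated and silent in somatic tissues, and ES cells can transcribe some of them outside the germ line.

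Arrays of the same group correlated across genes with r between 0.991 and 0.998. Array weights, here and below, come from an estimation that stopped before convergence. The array with the lowest weight (0.153) was the differentiated ES replicate 3, and every call of the 8 genes in comparisons with a differentiated group was kept without it. Pluripotency markers (10 genes) averaged 9.80 to 9.90 log2 units in differentiated adult and 9.20 to 9.30 in differentiated ES arrays, against 11.3 to 11.8 in the undifferentiated arrays. Germ cell markers (14 genes) averaged 8.23 to 8.26 in differentiated adult, 8.02 to 8.08 in differentiated ES, 7.88 to 7.90 in adult Stra8, 7.77 to 7.81 in ES Stra8, 7.73 to 7.75 in adult 129SV and 7.81 to 7.90 in ES 129SV arrays, and 4 of them (Ddx4, Nanos2, Nanos3 and Dazl) also belong to gene lists used below. Among the 14, Kit averaged 12.72 in differentiated adult and 12.25 in differentiated ES arrays, against 9.56 and 9.34 in undifferentiated 129SV arrays. Etv5 went the other way, with 9.48 in differentiated adult and 9.23 in differentiated ES arrays, against 11.31 and 10.95. Dazl averaged 9.51 in differentiated and 6.82 in undifferentiated adult 129SV arrays. On differentiation 7 of the 14 were called higher and 4 lower in adult cells, by the rule given below. Of all genes 59.7% were called there, 27.5% higher and 32.2% lower. In ES cells 5 were called higher and 4 lower, against 55.2% of all genes called, 27.9% higher and 27.3% lower. Fibroblast markers (11 genes), as feeder layers would carry them, averaged 8.91 to 8.97 in differentiated adult, 8.21 to 8.31 in differentiated ES, 10.6 to 10.7 in adult Stra8, 9.72 to 9.80 in ES Stra8, 9.85 to 9.90 in adult 129SV and 11.03 to 11.07 in ES 129SV arrays. Markers of testis somatic cells (9 genes) averaged 7.58 to 7.62 in differentiated adult, 7.35 to 7.49 in differentiated ES, 6.96 to 7.20 in adult Stra8, 6.89 to 6.94 in ES Stra8, 7.40 to 7.47 in adult 129SV and 7.25 to 7.29 in ES 129SV arrays. Values of RMA have no zero, and no detection calls were used here, so no marker can be called absent.

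The start regions are shown for 4 genes on which the results turn. Start regions were searched for 2 motifs bound by factors known to silence germline genes outside the germ line, and not every window holds one. A role of such factors was not tested. RefSeq windows of build GRCm38.p6, from 250 bases before to 50 bases after the annotated start, were found for 7 of the 8 genes. Capitals mark matches on either strand to the E-box CACGTG, to which MAX and its partners bind, and to the E2F-type motif GCGGGA or its reverse complement. The E-box reads the same on both strands, and matches of the 2 motifs do not overlap in these windows.
Mael, chr1:166238695-166238994, minus strand: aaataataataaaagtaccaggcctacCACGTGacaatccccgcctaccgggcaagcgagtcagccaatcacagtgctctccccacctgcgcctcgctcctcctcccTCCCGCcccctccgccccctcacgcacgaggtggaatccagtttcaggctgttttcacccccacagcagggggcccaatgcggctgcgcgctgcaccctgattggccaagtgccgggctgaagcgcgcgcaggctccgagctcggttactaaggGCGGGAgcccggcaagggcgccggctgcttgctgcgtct
Tex19.1, chr11:121145893-121146192, plus strand: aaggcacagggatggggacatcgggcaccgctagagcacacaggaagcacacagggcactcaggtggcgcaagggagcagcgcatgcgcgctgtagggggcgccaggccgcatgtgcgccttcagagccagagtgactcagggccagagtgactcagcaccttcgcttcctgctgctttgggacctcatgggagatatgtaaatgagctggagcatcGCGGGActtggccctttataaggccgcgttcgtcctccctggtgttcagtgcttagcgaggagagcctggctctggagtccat
Asz1, chr6:18109012-18109311, minus strand: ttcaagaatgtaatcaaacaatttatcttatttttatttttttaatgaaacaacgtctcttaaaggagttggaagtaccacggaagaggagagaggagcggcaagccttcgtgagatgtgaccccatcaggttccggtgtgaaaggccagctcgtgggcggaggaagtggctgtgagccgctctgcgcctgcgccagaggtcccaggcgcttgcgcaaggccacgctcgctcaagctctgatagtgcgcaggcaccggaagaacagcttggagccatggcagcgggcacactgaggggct
Tdrd12, chr7:35537666-35537965, minus strand (1 of 2 annotated windows): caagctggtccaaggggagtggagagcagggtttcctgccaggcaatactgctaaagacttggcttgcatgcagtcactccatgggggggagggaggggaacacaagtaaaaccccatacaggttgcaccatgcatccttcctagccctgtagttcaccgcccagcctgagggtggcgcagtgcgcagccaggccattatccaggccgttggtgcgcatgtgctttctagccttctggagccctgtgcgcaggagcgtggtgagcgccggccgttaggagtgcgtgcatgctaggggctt

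The Mael window held 1 E-box and 2 E2F-type matches, with 24 CpG dinucleotides and a CpG observed over expected ratio of 0.78. Tex19.1 had 1 E2F-type match and 16 CpG, at a ratio of 0.575. Asz1 (17 CpG, ratio 0.783) and Tdrd12 (11 CpG, ratio 0.408) had neither motif in these windows. Among the first annotated windows of the 7 genes, those of Mael, Tdrd1, Tdrd9 and Mov10l1 held an E-box, which 7.15% of all 32851 windows of the same length do. The E2F-type motif was found in 2 of the 7, against 20% of all windows, and the Mael window was the 1 with both, against 1.99% of all windows. CpG-rich windows, with at least 50% GC and a ratio of at least 0.6, numbered 4 of 7 (Mael, Tdrd1, Mov10l1 and Asz1), against 33.5% of all windows. A match describes the letters and is no evidence of binding, and none of these arrays measured methylation.

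**Figure D1:**
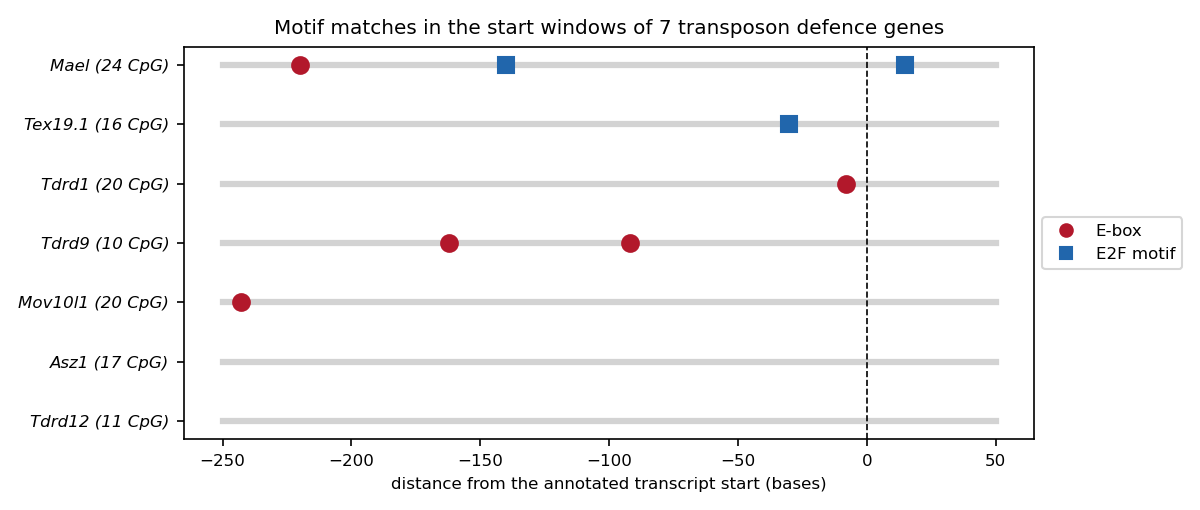
Position of motif matches in the start windows of 7 transposon defence genes, as distance in bases from the annotated transcript start (dashed line), with the CpG count of each window after the gene name. Circles are E-boxes and squares E2F-type motifs; Mael has 1 and 2 of them, and Asz1 and Tdrd12 have none.

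Among the proteins that act on transposon RNA, Piwil2 is the PIWI protein that cuts transcripts and amplifies piRNAs. Its log2 signal averaged 6.95 ± 0.10 in differentiated adult and 6.89 ± 0.10 in differentiated ES cells, 8.38 ± 0.10 in adult Stra8, 8.70 ± 0.07 in ES Stra8, 7.89 ± 0.03 in adult 129SV and 8.10 ± 0.05 in ES 129SV cells (SD, n = 3 each). The 4 undifferentiated groups did not overlap one another, and both differentiated groups lay below them and overlapped each other. Mov10l1, an RNA helicase that feeds precursor RNA into piRNA production, spanned 0.74 log2 units over the group means. Its arrays read 7.84, 7.83 and 7.83 in adult Stra8 cells, above every other array, and between 6.94 and 7.20 in both differentiated groups, below every undifferentiated array. In between, it averaged 7.36 ± 0.03 in ES Stra8, 7.55 ± 0.12 in adult 129SV and 7.45 ± 0.01 in ES 129SV cells (SD, n = 3 each), of which the 129SV groups overlapped each other.

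Mael, a protein of the germ cell granule that is needed for transposon silencing, spanned 2.79 log2 units. Its signal was 5.73, 6.07 and 6.01 in differentiated adult and 6.26, 6.12 and 6.05 in differentiated ES cells. It was 8.66, 8.76 and 8.77 in adult Stra8 and 6.90, 6.89 and 6.96 in ES Stra8 cells. In the 129SV background it was 6.61, 6.55 and 6.92 in adult and 7.99, 7.97 and 7.73 in ES cells. Adult Stra8 cells had the highest level and ES 129SV cells followed, both clear of all other groups, while ES Stra8 overlapped adult 129SV and the differentiated groups overlapped each other at the bottom.

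Tex19.1, a mammal-specific protein that limits retrotransposons in germ cells and placenta, was highest in adult 129SV cells. Its signal was 8.47, 8.70 and 8.66 in differentiated adult and 7.77, 7.66 and 7.71 in differentiated ES cells. In the Stra8 background it was 8.46, 8.33 and 8.20 in adult and 8.77, 8.56 and 8.66 in ES cells. In 129SV adult cells it was 9.53, 9.82 and 9.93, and in 129SV ES cells 8.20, 8.33 and 8.11. The adult 129SV arrays stood above every other array and differentiated ES cells below every other array. Differentiated adult cells overlapped ES Stra8 cells, and adult Stra8 cells overlapped ES 129SV cells.

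The 3 Tudor domain genes differed in how far they moved. Tdrd12, a Tudor protein with a helicase region that is needed to load a PIWI partner with piRNA, had the widest span of the 8 genes at 4.12 log2 units. Its signal was 8.56, 8.46 and 8.25 in differentiated adult and 6.82, 7.01 and 6.64 in differentiated ES cells, and in the Stra8 background 10.95, 10.97 and 10.92 in adult and 10.78, 10.79 and 10.86 in ES cells. Adult 129SV cells had 10.25, 9.99 and 10.18, and ES 129SV cells 9.67, 9.73 and 9.86. From adult Stra8 down through ES Stra8, adult 129SV, ES 129SV and differentiated adult to differentiated ES cells, no neighbours overlapped. Tdrd1, a scaffold of the granule, averaged 5.98 ± 0.06 in differentiated adult and 6.38 ± 0.12 in differentiated ES cells, 7.31 ± 0.11 in adult Stra8 and 6.68 ± 0.15 in ES Stra8 cells, and 6.30 ± 0.09 in adult 129SV and 6.07 ± 0.05 in ES 129SV cells (SD, n = 3 each). Adult Stra8 and then ES Stra8 cells were highest and did not overlap the rest. The lowest ES Stra8 array (6.533) lay only just above the highest differentiated ES array (6.522). Differentiated ES overlapped adult 129SV cells, and ES 129SV overlapped differentiated adult cells below them. Tdrd9, a helicase that acts with a nuclear PIWI protein, spanned 0.66 log2 units. It averaged 6.20 ± 0.20 in differentiated adult and 6.34 ± 0.17 in differentiated ES cells, 6.86 ± 0.08 in adult Stra8, 6.77 ± 0.04 in ES Stra8, 6.56 ± 0.18 in adult 129SV and 6.42 ± 0.14 in ES 129SV cells (SD, n = 3 each). Each group of Tdrd9 overlapped its neighbour in the order.

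Asz1 anchors the pathway to the outer face of mitochondria, where piRNA precursors are processed. Its signal was 6.76, 6.78 and 6.23 in differentiated adult and 5.44, 5.51 and 5.59 in differentiated ES cells. It was 5.93, 5.77 and 5.87 in adult Stra8 and 5.04, 5.10 and 5.26 in ES Stra8 cells. Adult 129SV cells had 5.33, 5.56 and 5.24, and ES 129SV cells 6.14, 5.97 and 5.72. Differentiated adult cells were highest, with replicate 3 below the other 2 arrays of the group but above every array outside it. Asz1 was the 1 member with its highest level in a differentiated group. All 6 group means of Asz1, Tdrd1 and Tdrd9 lay under 7.61, the median of group means over all genes, so a filter at that level leaves these 3 members out of every comparison.

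**Figure D2:**
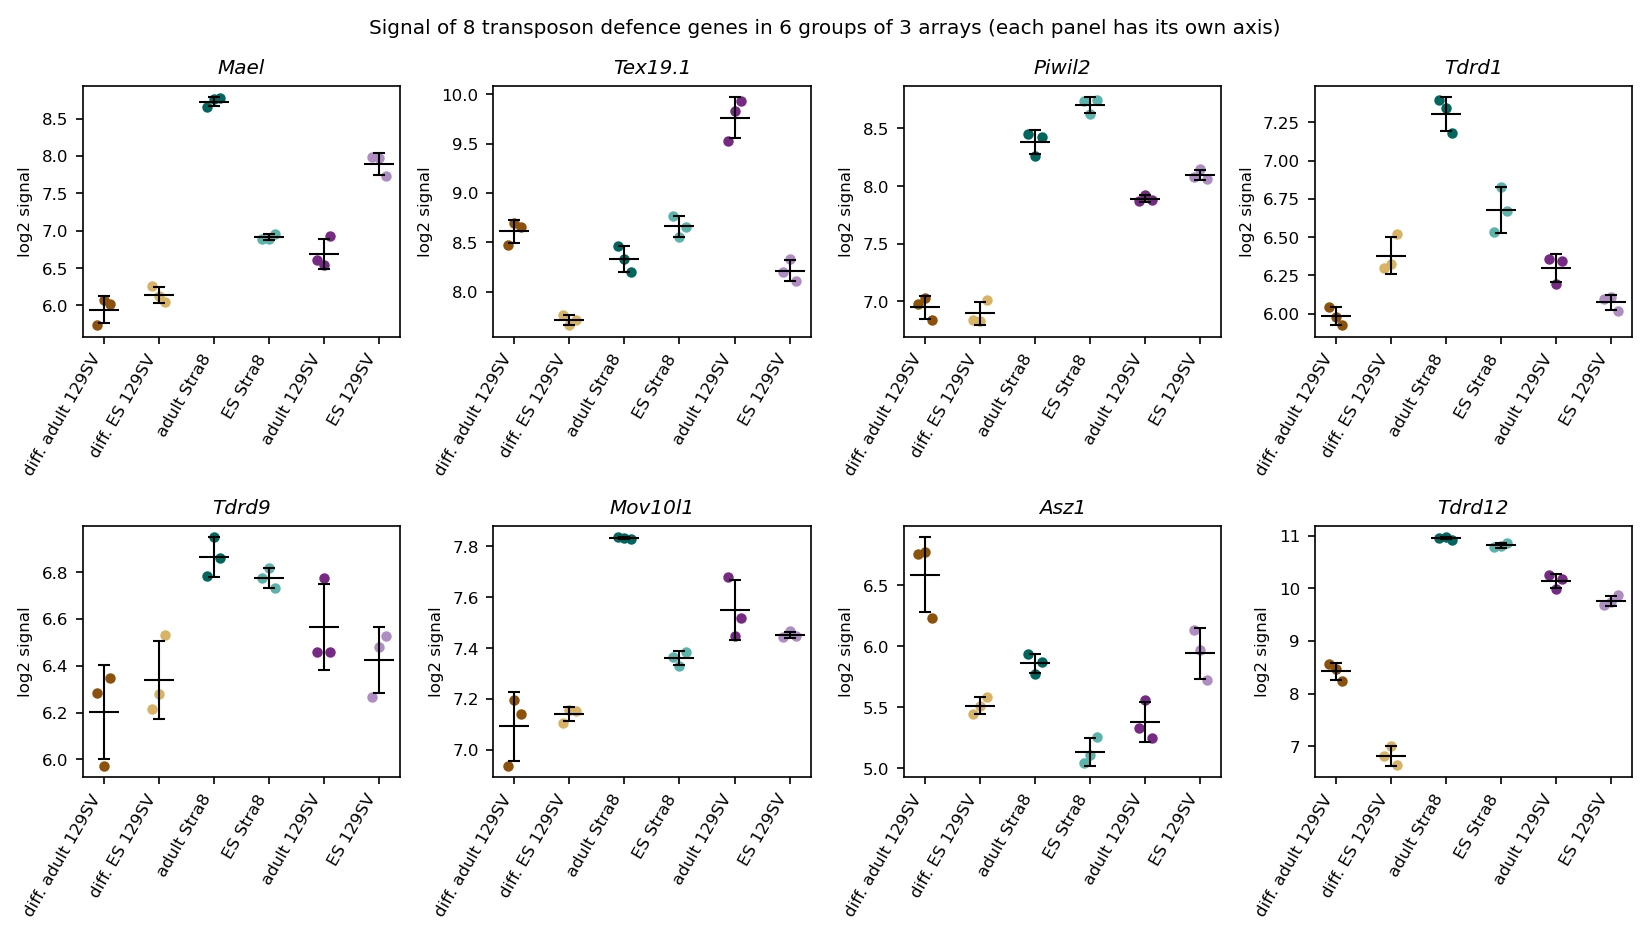
Log2 signal (y axis, a separate scale in each panel) of the 8 genes in 6 groups, with 1 point per array and the mean ± SD of 3 arrays as bars. Differentiated groups stand at the left; Tdrd12 falls below 9 there, while Asz1 is highest in differentiated adult cells.

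Changes below are differences of group means on the log2 scale with the standard error (SE) of a limma fit to all 18 arrays, and a gene was called at a Benjamini-Hochberg adjusted p under 0.05 over the 19938 genes. The 7 comparisons share arrays, so they are not independent of each other. The share of all genes called is given for each, since many genes passed.

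In the Stra8 background 4 of the 8 genes, with Mael foremost, were higher in adult than in ES cells. Mael rose by 1.82 ± 0.10 (adjusted p = 4.93e-09), Asz1 by 0.73 ± 0.13 (0.000493), Tdrd1 by 0.63 ± 0.08 (2.63e-05) and Mov10l1 by 0.47 ± 0.07 (4.56e-05), relative to ES Stra8 cells. Piwil2 fell by 0.32 ± 0.07 (0.00218) and Tex19.1 by 0.33 ± 0.10 (0.0196). The call of Tex19.1 was lost without ES replicate 1 (0.0914) or 3 (0.0510) or adult replicate 2 (0.0517) or 3 (0.0992). In all, 4 were higher and 2 lower, against 28.3% of all genes called, 13.2% higher and 15.1% lower, with a median of 0.30 beside -0.0033 over all genes. The change was 0.09 ± 0.11 for Tdrd9 (0.656) and 0.13 ± 0.10 for Tdrd12 (0.367); the 3 adult arrays of Tdrd12 lay above the 3 ES arrays, and it was called with array weights (0.0496) and in a fit to these 6 arrays alone (0.0467). All 11 fibroblast markers were higher in the adult cells (median 0.80), germ cell markers were higher in 6 and lower in 2 of 14, pluripotency markers were lower in 8 of 10 (median -0.43) and endodermal and extraembryonic markers higher in 7 of 11 with 0 lower (median 0.42). Their part in the result was not tested. In such bulk samples fewer cells of a type and less RNA per cell cannot be told apart.

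In the 129SV background adult cells had more Tex19.1 and less Mael than ES cells. Tex19.1 rose by 1.55 ± 0.10 (adjusted p = 2.07e-09) and Tdrd12 by 0.38 ± 0.10 (0.00323), while Mael fell by 1.21 ± 0.10 (7.05e-08) and Asz1 by 0.57 ± 0.13 (0.00197). Of the 8 genes 3 were higher, 3 lower and 2 not called, against 46.1% of all genes called, 23% higher and 23.1% lower, and the median change was 0.12 beside 0.06 over all genes. The other 2 calls were small. Piwil2 fell by 0.21 ± 0.07 (adjusted p = 0.0230), which was lost without ES replicate 2 (0.0836) or adult replicate 1 (0.0635) or 3 (0.0572) and after quantile normalisation (0.0930). Tdrd1 rose by 0.22 ± 0.08 (0.0373), which was lost without ES replicate 1 (0.0636), 2 (0.0586) or 3 (0.117) or adult replicate 1 (0.114) or 3 (0.107), after quantile normalisation (0.1003), with an intensity trend (0.0708) and with the replicate number as a block (0.0527). The change was 0.14 ± 0.11 for Tdrd9 (0.331) and 0.10 ± 0.07 for Mov10l1 (0.253), and with single arrays left out these values ranged over 0.03 to 0.19 and 0.03 to 0.15. All 11 fibroblast markers were lower in the adult cells (median -1.10), germ cell markers were higher in 5 and lower in 4 of 14, pluripotency markers higher in 1 and lower in 2 of 10, and endodermal and extraembryonic markers higher in 2 and lower in 5 of 11. Their part in these differences was not tested.

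Tested as a difference of differences, the effect of origin (adult minus ES) was not the same in both backgrounds for 5 of the 8 genes, against 43.1% of all genes called, 21.3% positive and 21.8% negative. Mael was 1.82 in Stra8 and -1.21 in 129SV, a difference of 3.02 ± 0.15 (adjusted p = 8.45e-11). For Asz1 the values were 0.73 and -0.57, a difference of 1.29 ± 0.19 (2.39e-05), and for Tex19.1 -0.33 and 1.55, a difference of -1.88 ± 0.14 (1.36e-08). Mov10l1 (0.38 ± 0.09, 0.00350) and Tdrd1 (0.40 ± 0.12, 0.0104) were more positive in the Stra8 background. No call was made for Piwil2 (-0.11, 95% interval -0.32 to 0.09), Tdrd9 (-0.05, -0.39 to 0.28) or Tdrd12 (-0.25, -0.54 to 0.04), though Tdrd12 was called with array weights (-0.28, adjusted p = 0.0201). The same difference was positive for 11 of 11 fibroblast markers (median 1.82). It was negative in 5 and positive in 0 of 10 pluripotency markers, positive in 5 and negative in 2 of 11 endodermal and extraembryonic markers, and positive in 5 and negative in 5 of 14 germ cell markers. The part of these markers in the result was not tested.

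Differentiated adult 129SV cells had less of 7 of the 8 genes than undifferentiated ones, and more Asz1. Tdrd12 fell by 1.72 ± 0.10 (adjusted p = 9.66e-11), Tex19.1 by 1.15 ± 0.10 (2.83e-08), Piwil2 by 0.94 ± 0.07 (3.67e-09) and Mael by 0.75 ± 0.10 (8.53e-06). Mov10l1 fell by 0.46 ± 0.07 (1.37e-05), Tdrd1 by 0.31 ± 0.08 (0.00373) and Tdrd9 by 0.36 ± 0.11 (0.0102), the last of which was lost without differentiated adult replicate 2 (0.0713) or adult replicate 2 (0.0679). Asz1 rose by 1.21 ± 0.13 (4.72e-07). All 8 were called, against 59.7% of all genes, of which 32.2% were lower and 27.5% higher, and the median was -0.60 beside -0.08 over all genes. Pluripotency markers were lower in 10 of 10 (median -1.77), fibroblast markers lower in 9 and higher in 2 of 11 (median -0.94), and endodermal and extraembryonic markers higher in 9 of 11 (median 2.29). Germ cell markers were higher in 7 and lower in 4 of 14, and the part of these cell types in the result was not tested.

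Most of the 8 genes were lower in differentiated than in undifferentiated ES 129SV cells. Tdrd12 fell by 2.93 ± 0.10 (adjusted p = 1.06e-13), Mael by 1.75 ± 0.10 (2.45e-10) and Piwil2 by 1.20 ± 0.07 (1.72e-10). Tex19.1 fell by 0.50 ± 0.10 (0.000381), Mov10l1 by 0.31 ± 0.07 (0.000657) and Asz1 by 0.43 ± 0.13 (0.0104), the last of which was lost without ES replicate 1 (0.0620). Tdrd1 rose by 0.31 ± 0.08 (0.00478), and the change of Tdrd9 was -0.08 ± 0.11 (0.565). In all, 6 genes were lower and 1 higher, against 27.3% and 27.9% of all genes and 55.2% called in either direction, with a median of -0.47 beside 0.05 over all genes. All 10 pluripotency markers were lower (median -2.21), all 11 fibroblast markers were lower (median -2.86) and all 11 markers of endoderm and extraembryonic epithelium were higher (median 2.32). Germ cell markers were higher in 5 and lower in 4 of 14, and the part of these cell types in the result was not tested.

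The response to differentiation differed between adult and ES cells for 6 of the 8 genes, against 45.7% of all genes called, 24.2% positive and 21.5% negative. Asz1 responded by 1.21 in adult and -0.43 in ES cells, a difference of 1.64 ± 0.19 (adjusted p = 2.34e-06), and Tdrd1 by -0.31 and 0.31, a difference of -0.62 ± 0.12 (0.000419). Tdrd12 fell less in adult cells, by a difference of 1.22 ± 0.14 (1.78e-06), and so did Mael, by 1.00 ± 0.15 (3.87e-05), while Tex19.1 fell more (-0.65 ± 0.14, 0.00128). Mael started lower in adult (6.69) than in ES 129SV cells (7.90). After differentiation Mael averaged 5.94 in adult and 6.14 in ES cells, a difference that was not called (adjusted p = 0.154). For Piwil2 the difference of 0.26 ± 0.10 (0.0431) was lost when any 1 of 11 of the 18 arrays was left out, all 3 of ES 129SV, replicates 1 and 2 of differentiated ES and of differentiated adult 129SV, and replicates 1 and 3 of adult 129SV and of ES Stra8, with adjusted p between 0.0507 and 0.108. It was also lost with arrays centred (0.0657), an intensity trend (0.0528), a fit to these 12 arrays alone (0.0633) and the replicate number as a block (0.0575). The difference was -0.28 (95% interval -0.61 to 0.06) for Tdrd9 and -0.14 (-0.34 to 0.06) for Mov10l1. Fibroblast markers differed in the positive direction in 11 of 11 (median 1.83) and pluripotency markers in 7 of 10 with 0 negative (median 0.58). Endodermal and extraembryonic markers differed in 5 positive and 5 negative calls, germ cell markers in 6 and 3, and the part of these markers in the result was not tested.

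After differentiation, adult cells had more Tdrd12, Asz1 and Tex19.1 than ES cells. Tdrd12 was 3.03-fold higher (95% interval 1.40 to 1.80 on the log2 scale, adjusted p = 3.24e-09). Asz1 was higher by 1.08 ± 0.13 (8.86e-06) and Tex19.1 by 0.90 ± 0.10 (3.24e-06), while Tdrd1 was lower by 0.40 ± 0.08 (0.00144). With the replicate number as a block in a fit to these 6 arrays alone, the same 4 genes were called (Tdrd12, Asz1, Tex19.1 and Tdrd1), and the count over all genes was 4244, against 6419 in the fit to all arrays and 3537 in a fit to these 6 arrays without the block. The 4 called genes compare with 32.2% of all genes, 19.4% higher and 12.8% lower, and the median of the 8 was 0.0023 beside -0.03 over all genes. The change was -0.20 ± 0.10 for Mael (0.154), which was called with array weights (0.0191), 0.05 ± 0.07 for Piwil2 (0.616), -0.14 ± 0.11 for Tdrd9 (0.378) and -0.05 ± 0.07 for Mov10l1 (0.632). With single arrays left out these 4 values ranged over -0.27 to -0.10, 0.01 to 0.11, -0.21 to -0.03 and -0.10 to 0.03. Pluripotency markers were higher in 8 of 10 (median 0.53) and fibroblast markers in 9 of 11 (median 0.33), germ cell markers in 7 of 14 with 1 lower, endodermal and extraembryonic markers in 4 of 11 with 5 lower, and their part in the result was not tested.

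**Figure D3:**
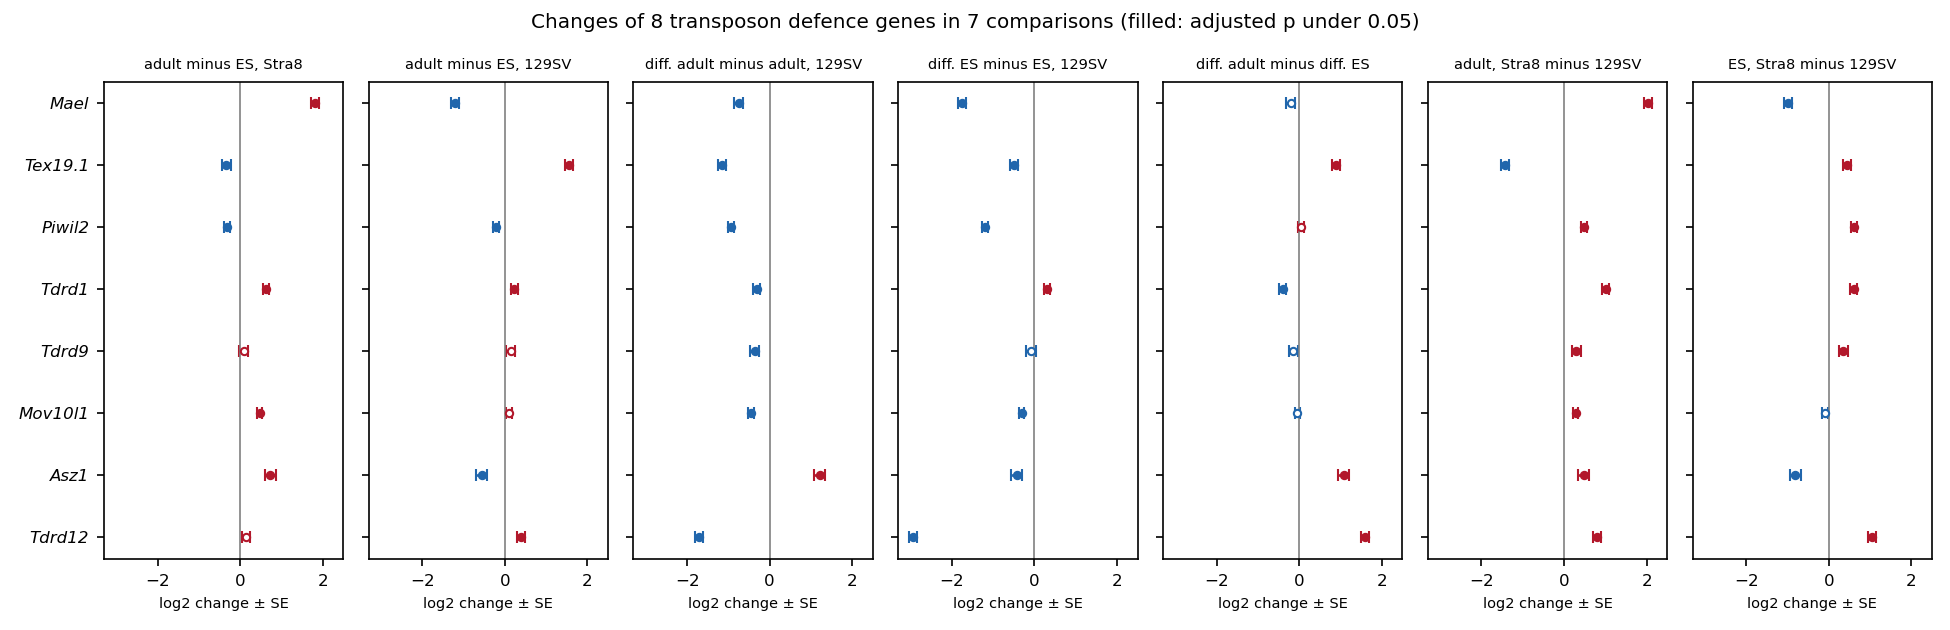
Log2 change ± SE (x axis) of the 8 genes (rows) in 7 comparisons (panels); filled points have an adjusted p under 0.05, red is higher and blue lower in the group named before "minus". The panels for differentiation hold the largest decreases, with Tdrd12 at -1.72 in adult cells and -2.93 in ES cells.

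Cells of the Stra8 background carried more of most of these genes than cells of the 129SV background. In adult cells 7 were higher and 1 was lower, all of them called, against 51% of all genes, 24.2% higher and 26.8% lower, with a median of 0.49 beside -0.08 over all genes. Mael rose by 2.04 ± 0.10 (adjusted p = 1.50e-10), Tdrd1 by 1.01 ± 0.08 (3.27e-08), Tdrd12 by 0.81 ± 0.10 (1.98e-06) and Piwil2 by 0.49 ± 0.07 (1.51e-05), while Tex19.1 fell by 1.43 ± 0.10 (4.83e-09). Asz1 rose by 0.48 ± 0.13 (0.00579), Mov10l1 by 0.28 ± 0.07 (0.00179) and Tdrd9 by 0.30 ± 0.11 (0.0344). The call of Tdrd9 was lost without 129SV replicate 1 (0.120) or 3 (0.121) or Stra8 replicate 2 (0.116) or 3 (0.0683). Fibroblast markers were higher in 7 and lower in 1 of 11 (median 0.79), germ cell markers higher in 5 and lower in 6 of 14, pluripotency markers higher in 2 and lower in 6 of 10, endodermal and extraembryonic markers higher in 5 and lower in 2 of 11, and their part in the result was not tested.

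In ES cells 5 were higher in the Stra8 background and 2 lower, against 41.4% of all genes called, 21.3% higher and 20% lower. Tdrd12 rose by 1.06 ± 0.10 (adjusted p = 1.13e-07), Piwil2 by 0.61 ± 0.07 (1.93e-06), Tdrd1 by 0.60 ± 0.08 (1.45e-05), Tex19.1 by 0.45 ± 0.10 (0.00153) and Tdrd9 by 0.35 ± 0.11 (0.0182). The call of Tdrd9 was lost without Stra8 replicate 2 (0.0575) or 129SV replicate 1 (0.0966). Mael fell by 0.99 ± 0.10 (7.73e-07) and Asz1 by 0.81 ± 0.13 (8.29e-05), and the change of Mov10l1 was -0.09 ± 0.07 (0.312). The median was 0.40 beside -0.01 over all genes. Fibroblast markers were lower in 11 of 11 (median -1.16), germ cell markers higher in 4 and lower in 4 of 14, pluripotency markers higher in 4 and lower in 2 of 10, and endodermal and extraembryonic markers higher in 1 and lower in 6 of 11. Their part in the result was not tested.

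**Figure D4:**
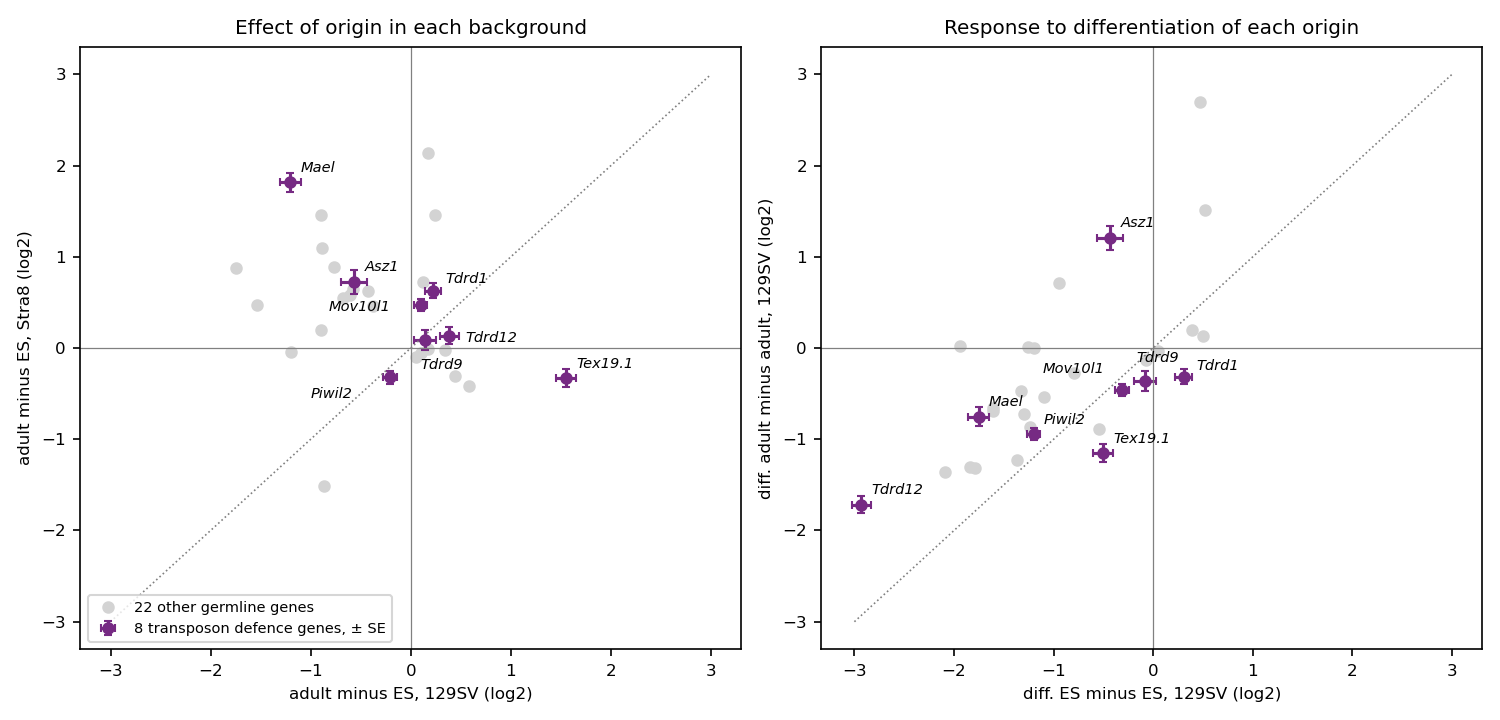
Left, adult minus ES change in the Stra8 background (y axis) against the 129SV background (x axis); right, change on differentiation of adult cells (y axis) against ES cells (x axis), all in log2 units, with the 8 genes ± SE in purple and 22 other germline genes in grey. Mael (1.82 in Stra8, -1.21 in 129SV) and Asz1 (0.73 and -0.57) lie in the upper left quadrant of the left panel, and Asz1 (1.21 in adult, -0.43 in ES cells) again in that of the right panel.

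Further genes of the pathway were measured as a list of 21 piRNA partners. The counts of this list and of those after it stand against the shares of all genes called that were given above, 59.7% on differentiation of adult and 55.2% of ES cells, 51% between Stra8 and 129SV in adult and 41.4% in ES cells, 32.2% between differentiated adult and ES cells, 43.1% for the difference of origin effects and 45.7% for that of the responses. After differentiation 10 of them were lower and 5 higher in adult cells (median -0.18), and 10 were lower and 3 higher in ES cells (median -0.19). Morc1, an ATPase needed to silence transposons in the male germ line, changed by -1.72 in adult and -2.57 in ES cells, and Pnldc1, the nuclease that trims piRNA ends, by -1.79 and -1.77. Prmt5, which methylates the arginines of PIWI proteins that Tudor domains bind, changed by -1.09 and -1.19. In adult cells 11 partners were higher and 4 lower in the Stra8 background than in 129SV (median 0.27), with Rnf17, a Tudor protein, at 1.63, Tex15 at 1.14 and the Tudor protein Tdrd5 at 1.02. In ES cells 7 were higher and 2 lower in Stra8 than in 129SV (median 0.05), with Tdrd5 at 1.39 and Tdrd7 at -2.07.

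Between adult and ES cells 6 partners were higher and 1 lower in Stra8 (median 0.08), where 28.3% of all genes were called, and 5 higher and 2 lower in 129SV (median 0.02), where 46.1% of all genes were called. Tdrd7, a Tudor protein of germ cell granules, changed by -2.22 in 129SV, and the difference of its effects (Stra8 minus 129SV) was 2.44. Rnf17 (1.57) and Gtsf1, a small zinc finger protein that works with PIWI proteins (1.20), also differed in the positive direction, among 5 positive and 4 negative calls. After differentiation 4 were higher and 0 lower in adult than in ES cells (median -0.03). The response to differentiation differed (adult minus ES) in 4 positive and 4 negative calls, with Tdrd7 at 2.06 and Tex15 at 1.15.

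A further list took in 24 measured genes linked to transposon repression outside the piRNA proteins, with DNA methyltransferases and Tet enzymes among them. Its counts and medians do not separate genes that favour repression from genes that may act against it. The piRNA pathway also acts through DNA methylation, so these 24 genes are not all apart from it. After differentiation 13 of them were lower and 3 higher in adult cells (median -0.39), against 32.2% of all genes lower, and 17 lower and 3 higher in ES cells (median -0.61), against 27.3% of all genes lower. Dnmt3l, a cofactor of de novo DNA methylation, changed by -2.86 in adult and -3.78 in ES cells, and the methyltransferase Dnmt3b by -2.22 and -2.93. Apobec3, a cytidine deaminase that restricts retroelements, changed by -1.70 and -2.52. Between adult and ES cells 3 were higher and 10 lower in Stra8 (median -0.14), with Dnmt3b at 1.44. Of all genes 28.3% were called there, 13.2% higher and 15.1% lower. In 129SV 6 were higher and 11 lower (median -0.09), with the methyltransferase Dnmt3a at 1.18. Of all genes 46.1% were called in 129SV, 23% higher and 23.1% lower. After differentiation 9 were higher and 1 lower in adult than in ES cells (median 0.11). Between Stra8 and 129SV, 6 were higher and 9 lower in adult cells (median -0.09), with the silencing subunit Tasor, listed as Fam208a, at 1.44 and Dnmt3a at -1.19, and 10 were higher and 10 lower in ES cells (median -0.04), with Dnmt3b at -1.55. The effect of origin differed in 4 positive and 6 negative calls, and the response to differentiation in 12 positive and 6 negative calls.

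Other germline genes that promoter methylation or the E2F6 and PRC1.6 repressors keep silent in somatic cells numbered 22. In the Stra8 background 13 were higher and 2 lower in adult than in ES cells (median 0.51), where 28.3% of all genes were called, and in the 129SV background 4 were higher and 13 lower (median -0.50), where 46.1% were called. The difference between backgrounds was positive in 15 and negative in 2 (median 1.13), against 21.3% positive and 21.8% negative over all genes. Fibroblast markers were positive in 11 of 11 in the same contrast (median 1.82), and their part in the result was not tested. Slc25a31, the germ cell form of the ATP carrier of mitochondria, differed by 2.63, Hormad1, a protein of meiotic chromosome axes, by 2.36, and the RNA-binding protein Dazl by 2.01. After differentiation 12 were lower and 3 higher in adult cells (median -0.37), where Dazl rose by 2.69 and Taf7l, a germ cell transcription factor subunit, by 1.51, and 16 were lower and 3 higher in ES cells (median -1.21). The largest fall of the list was that of Syce1, at -1.36 in adult and -2.09 in ES cells. The response of these 22 genes to differentiation differed (adult minus ES) in 15 positive calls and 1 negative call (median 0.57). In adult cells 16 were higher and 2 lower in Stra8 than in 129SV (median 1.18), in ES cells 10 and 5 (median 0.19), and in differentiated adult against differentiated ES cells 10 and 1 (median 0.20).

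E2F6 and PRC1.6, a Polycomb complex that silences germline promoters, were covered by 15 subunits. Between adult and ES cells 1 was higher and 2 lower in Stra8 (median 0.09), where 28.3% of all genes were called, and 4 higher and 4 lower in 129SV (median -0.03), where 46.1% were called. After differentiation 8 were lower and 4 higher in adult cells (median -0.20), and 9 lower and 2 higher in ES cells (median -0.27). The subunit L3mbtl2 changed by -1.65 in adult and -1.65 in ES cells, the deacetylase Hdac1 by -1.49 and -1.65, and Yaf2 rose by 1.63 in adult cells. Mga, the MAX partner of the complex, was higher in Stra8 than in 129SV cells by 1.04 in adult and 1.05 in ES cells, among 7 higher and 5 lower subunits in adult cells and 4 and 5 in ES cells. After differentiation 4 were higher and 1 lower in adult than in ES cells (median 0.01). The effect of origin differed in 4 positive and 4 negative calls, and the response to differentiation in 4 and 2.

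The genes most like each member were sought by Pearson r over the 6 group means, among 5493 genes whose means span at least 1 log2 unit. These r values rest on 6 groups that share arrays and the division into undifferentiated and differentiated cells, and are descriptions. Hormad1 was the gene most like Mael (0.994), followed by Steap2 (0.992) and Sod3 (0.980). For Piwil2 they were Rnf138 (0.999), Txlng (0.997) and Terb2 (0.997), and for Tdrd12 Thada (0.997), Lncenc1 (0.996) and Sall4 (0.995). Tex19.1 was most like Nudt21 (0.988), Guk1 (0.986) and Haus8 (0.985), and Tdrd1 most like Rragd (0.982), Lrrc36 (0.978) and Tmprss11f (0.971). Tdrd9 was most like Ppfia4 (0.994), Pcgf6 (0.990) and Kif1a (0.990), and Mov10l1 most like Sfrp2 (0.986), Ppbp (0.978) and Fmn2 (0.977). Asz1 was most like Lpl (0.989), Prss23 (0.971) and Cdh6 (0.955). The means of Tdrd9 and Mov10l1 themselves span less than 1 log2 unit.

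Among the members themselves, Piwil2 and Tdrd12 had the most similar group means (r = 0.927 over 6 groups), followed by Mael and Mov10l1 (0.885). Asz1 had a negative r with each of the other 7, between -0.57 with Tdrd9 and -0.05 with Mael. Tex19.1 and Mael had an r of -0.11. The germ cell helicase Ddx4, a partner of the pathway that also marks germ cells, was 0.58 ± 0.08 higher in adult than in ES Stra8 cells (adjusted p = 6.19e-05), and its change between adult and ES 129SV cells was 0.04 ± 0.08 (0.731).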

How the data were processed

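Total RNA of 18 samples in 6 groups of 3 was measured on arrays of probe sets. The authors deposited log2 values, summarised by RMA with Affymetrix Expression Console (no version named) according to the submitters' processing notes; which arrays were normalised together is not given in the sources used here. Of 35556 probe sets, 21789 had 1 gene symbol in the platform annotation, 1621 had several and 12146 were not named. For the 999 genes with more than 1 such probe set the one with the highest mean over 18 arrays was used, which gave 19938 genes. All arrays entered 1 linear model, with group means as coefficients, in limma 3.58.1 (R 4.3.3; 12 residual and 3.78 prior degrees of freedom); the code was tested on simulated data. The 8 members and the gene lists were chosen with earlier results of these data known. All 8 members are named in every comparison. Of the 4 gene lists, genes called with a log2 change of at least 1 could be named, up to 4 a list and comparison. Ddx4, Kit and Etv5 were named after their values were seen. Lists are described by counts and medians.

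Alternatives were 2 other array scalings, a filter on dim genes, array weights, an intensity trend, a fit to the arrays compared alone, the replicate number as a block, other uses of probe sets, and each array left out in turn. Same-numbered arrays deviated together in the differentiated adult and ES groups (r over genes between 0.144 and 0.442, above 0.1 in 3 of 3 pairs) and did not in all 3 pairs of any other comparison. Replicates 1 and 2 of those groups also correlated across numbers (0.307 and 0.203), and replicate 3 of either group had negative r with both of them (-0.373 to -0.226). Deviations were taken from the mean of the 3 arrays of a group, which ties these r values to each other. Numbered pairs therefore cannot be told from replicate 3 standing apart from 1 and 2. Precision is limited by having 3 arrays in each group.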

Additional observations from a re-analysis of the deposited data

Results flagged for a closer look

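The effect of origin (adult minus ES cells) differed between the Stra8 and 129SV backgrounds, by a test of the difference itself, for Mael (3.02, adjusted p = 8.45e-11), Tex19.1 (-1.88, 1.36e-08), Asz1 (1.29, 2.39e-05), Tdrd1 (0.403, 0.0104) and Mov10l1 (0.376, 0.0035). Mael and Asz1 were higher in adult than in ES cells of the Stra8 background and lower in those of the 129SV background, and Tex19.1 went the other way. The response to differentiation differed between adult and ES cells for Asz1 (1.64, adjusted p = 2.34e-06), Tdrd12 (1.22, 1.78e-06), Mael (1.00, 3.87e-05), Tex19.1 (-0.652, 0.00128), Tdrd1 (-0.619, 0.000419) and Piwil2 (0.258, 0.0431). Mael started lower in adult 129SV cells and was not called between differentiated adult and ES cells (-0.20, adjusted p = 0.154). The call of Piwil2 was lost in 15 of 27 alternatives, the replicate block (0.0575) among them, with adjusted p up to 0.108.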

How the results depend on the processing

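Of 1925 recomputed changes of the 8 genes, 1876 kept their direction and their side of the threshold, 40 lost a call, 4 gained one and 5 turned sign. The turned values were all uncalled: Mov10l1 between differentiated adult and ES cells with array weights (0.0013 log2) or without differentiated adult replicate 1 (0.0302; -0.0995 to 0.0302 over single arrays left out), and Tdrd9 in the difference of origin effects with array weights (0.0064), without ES 129SV replicate 1 (0.029) or without adult 129SV replicate 2 (0.0553; -0.104 to 0.0553 over single arrays left out). Leaving out genes dim in every group removed Tdrd1, Tdrd9 and Asz1 and so lowered the counts called to 2 between differentiated adult and ES cells, 5 on differentiation of adult cells, 4 between Stra8 and 129SV ES cells, 5 between Stra8 and 129SV adult cells, and 3 in the difference of origin effects. These counts are out of the 5 members kept. Counts of the other comparisons fell too, by no more than 1.5 times. With all single-array omissions set aside, their lowest values were 4 in place of 6 between adult and ES 129SV cells and 4 in place of 6 in Stra8. On differentiation of ES cells the lowest was 5 in place of 7, and for the response to differentiation 4 in place of 6. The dim filter reached each of these lowest values, again out of the 5 members kept, and no call of those 5 members changed under it. The count over all genes rose to 8690 with array weights, whose estimation stopped before convergence, for adult against ES Stra8 cells (5638 in the main fit). Between differentiated adult and ES cells it fell to 3537 when the 6 arrays were fitted alone and to 4244 with the replicate number as a block there as well, against 6419; this last alternative was added after the data were seen. With the replicate block in the fit to all arrays, members called were 5 in place of 6 between adult and ES 129SV cells and 5 in place of 6 for the response to differentiation, and the block changed no other call of the 8 genes. With 1 array left out, members called ranged from 4 to 6 between adult and ES 129SV cells, 5 to 6 in Stra8, 6 to 7 and 7 to 8 on differentiation of ES and adult cells, 6 to 7 and 7 to 8 between backgrounds in ES and adult cells, and 5 to 6 for the response to differentiation, and stayed at 4 between differentiated cells and at 5 for the origin effects. Scaling moved the median of all genes by at most 0.05 log2. Lists kept their counts within 1.5 times in 2171 of 2196 recomputed counts. With 1 array left out, 12 of the 15 uncalled and 0 of the 57 called changes of the 8 genes moved by more than 1.5 times.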
